A study of Homo sapiens with 2 samples.

Results

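Reads of 5 genes of the actin cytoskeleton were followed through a test of inducible RNA editing: the actins ACTB and ACTG1, and CFL1, PFN1 and MYH9, whose proteins act on actin. The members are all A positions listed for the minus strand within the hg19 intervals of these genes, whichever G share they had. The genes themselves were chosen with earlier results of these data known. The listed positions ran over chr7:5566791-5570168 for ACTB, chr17:79477001-79479381 for ACTG1, chr17:4848951-4852161 for PFN1 and chr22:36677358-36783905 for MYH9, and on chromosome 11 up to 65625574 for CFL1. They numbered 2980 of 3510746 listed nuclear positions with ABA and 2916 of 4070751 without ABA, 3022 of 4727008 in either library, where nuclear means the autosomes and X. All 5 genes had positions in both libraries.

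The samples were HEK-293T cells, an established line from human embryonic kidney, and all carried a CIRTS-hADAR biosensor. One library was labelled with ABA, a small molecule, and the other without ABA, and the labels give no other difference. CIRTS is an engineered system that brings an effector to an RNA, here the human editing enzyme ADAR, and the comparison asks how A-to-G changes in mRNA differ with ABA. The dose and time of ABA, the promoter of the construct and whether the cells were 1 clone are not stated in the sources used here. The library with ABA held 44914317 nuclear base reads and the one without ABA 50748953, with a median depth of 10 reads per position in both. With 1 library per condition no difference has a replicate check, and the p-values compare 2 libraries, not 2 conditions. All intervals are at 95% and cover the error of counting only. They are too narrow to the extent that 1 read covers several A positions.

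Actin monomers assemble into filaments that shape the cell, drive its movement and close the cleavage furrow at division. ACTB encodes beta-actin and ACTG1 gamma-actin, nearly identical proteins that most non-muscle cells make in bulk. CFL1 encodes cofilin-1, which severs and disassembles old filaments, and PFN1 encodes profilin-1, which hands actin monomers to growing ends. MYH9 encodes the heavy chain of non-muscle myosin IIA, the motor that contracts actin bundles. ADAR enzymes turn adenosine in double-stranded RNA into inosine, which is read as G. The labels name none of the 5 mRNAs as a target.

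The stretches around the sites named below show where other A bases stand. The deposited files list the A positions of a transcript, so in each 21-nt stretch, read 5′ to 3′ on the transcript, n is a base that is not listed, a is a listed A and the capital A is the site itself. A base can be unlisted because it is not A or because its depth was under the cutoff. All sites are on the minus strand, so their hg19 numbers run down along the transcript. The first 11 are the sites with the largest changes in each gene that has any with 2 G reads, which leaves out MYH9.
ACTB site 5567311: aaanaanannAnannnnnann
ACTB site 5567959: annannnnnaAnnannnnnnn
ACTB site 5567738: aaanannnnnAnnnnaanana
ACTB site 5568001: nnnnnnnanaAnannnannan
ACTG1 site 79477064: nnnnannnnnAnnnnanaana
ACTG1 site 79479328: nnnannnnnaAannnnnnnnn
ACTG1 site 79477352: nnnnnannnnAnnaannnnnn
ACTG1 site 79477644: nnnnaaannnAnanannnnan
CFL1 site 65623580: nanaanaanaAnannannnnn
CFL1 site 65623136: nnnannaanaAnaannnnana
PFN1 site 4849934: annnnnannaAnannnanaan
To these are added sites that belong to pairs at the same place in both actins.
ACTG1 site 79478303: nnnnnnnanaAnannnannan
ACTB site 5568070: annaannanaAnnnnnnnnan
ACTG1 site 79478372: annaannanaAnnnnnnnnan
ACTB site 5568001 and ACTG1 site 79478303 form a pair with identical A patterns, and so do ACTB site 5568070 and ACTG1 site 79478372. Pairs were set by matching the A positions of both actins, so like patterns come with the pairing. A listed A stood directly before the site in 6 of the 11, and in 12 of all 25 sites with at least 2 G reads in either library. That was so for 735 of all 3022 positions (24.3%).

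Reads of both actin mRNAs had more A-to-G changes with ABA. The A-to-G rate is the number of G reads over A plus G reads, summed over a gene. In ACTB it was 0.202% (0.151 to 0.266), 51 of 25191 reads, with ABA and 0.0650% (0.0355 to 0.109), 14 of 21540 reads, without ABA. The intervals of the libraries did not overlap, and the ratio was 3.11 (1.70 to 6.09). In ACTG1 the rate was 0.234% (0.184 to 0.294), 75 of 32017 reads, with ABA and 0.102% (0.0678 to 0.147), 28 of 27466 reads, without ABA. These intervals did not overlap either, and the ratio was 2.30 (1.47 to 3.68). How many other loci had intervals that did not overlap was not counted. All other nuclear transcripts together had a ratio of 2.01.

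For the proteins that act on actin the intervals were wider. MYH9, the motor, had 22 of 30013 reads (0.0733%, 0.0459 to 0.111) with ABA and 7 of 25056 (0.0279%, 0.0112 to 0.0576) without ABA, a ratio of 2.62 (1.08 to 7.27). CFL1, the severing protein, had 19 of 11137 reads (0.171%, 0.103 to 0.266) with ABA and 8 of 9124 (0.0877%, 0.0379 to 0.173) without ABA. Its ratio of 1.95 had an interval of 0.813 to 5.14, which includes 1. PFN1, the monomer carrier, had the fewest G reads, 6 of 7787 (0.0771%, 0.0283 to 0.168) with ABA and 3 of 6241 (0.0481%, 0.00991 to 0.140) without ABA, a ratio of 1.60 (0.342 to 9.91). The measured rate was higher with ABA in all 5 genes, and in CFL1 and PFN1 the libraries differed by less than counting error.

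**Figure D1:**
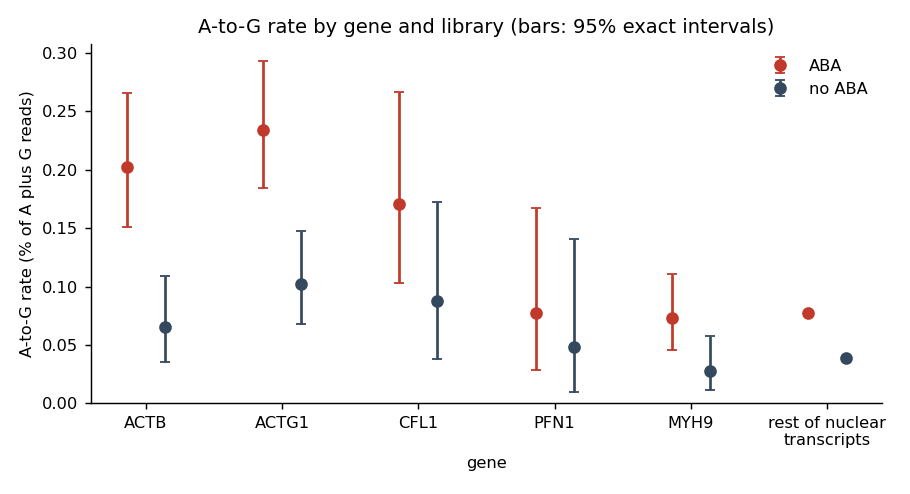
A-to-G rate in percent of A plus G reads (y axis) for each gene and for all other nuclear transcripts (x axis), in the ABA library (red, left) and the library without ABA (dark, right), with 95% exact intervals as bars. ACTB and ACTG1 stand at 0.202% and 0.234% with ABA, and their bars lie above those without ABA.

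No gene passed the test across the whole table. Each gene interval was tested by a two-sided Fisher's exact test as 1 of 45195 loci, the others being blocks of neighbouring positions outside the 5 genes with at least 200 reads in each library. The exact test with Benjamini-Hochberg adjustment over all loci gave an adjusted p of 0.193 for ACTB and 0.294 for ACTG1, and of 1 for CFL1, PFN1 and MYH9. Of all loci 0.0133% were called higher with ABA and 0% lower. Of the 647 loci with at least 5000 reads in each library, which include the 5 genes, 0.464% were called higher. At positions of at least 50 reads alone, with fewer loci tested, ACTG1 passed with a ratio of 2.48 and an adjusted exact p of 0.0154.

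Without adjustment, 3 of the 5 genes were higher at an exact p under 0.05, namely ACTB (5.1e-05), ACTG1 (9.7e-05) and MYH9 (0.024). That was so for 0.639% of all loci and 14.8% of the deep ones. The rate was higher by any amount in 5 of 5 genes, beside 27.9% of all loci and 74.2% of the deep ones, and lower in 0 of 5, beside 13.5% and 25.3%. In ACTB, ACTG1 and MYH9 it was at least 2 times as high, which held for 23.6% of all loci and 39.6% of the deep ones.

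The ABA ratio of each gene was set against that of all other transcripts. The other nuclear transcripts together had 0.0774% with ABA and 0.0386% without ABA, a ratio of 2.01 (1.97 to 2.04). The ACTB ratio over this one was 1.55 (0.859 to 2.80), that of ACTG1 1.14 (0.741 to 1.77) and that of MYH9 1.31 (0.558 to 3.06). CFL1 had 0.969 (0.424 to 2.21) and PFN1 0.799 (0.200 to 3.19). All 5 intervals include 1, and those of CFL1, PFN1 and MYH9 reach far to both sides of it. Positions with a G share of 35% or more in either library, 0 of them in the genes, were left out here as variant-like. With these kept the ratio of the other transcripts was 1.70, and over it ACTB had 1.83 (1.02 to 3.31), which no longer includes 1, and CFL1 1.15 (0.502 to 2.62). With 50 reads or more on both sides PFN1 had 1.27 (0.141 to 11.3) and CFL1 0.808 (0.340 to 1.93), so neither has a settled direction. Among the 642 deep loci outside the genes the median ratio was 1.62, with quartiles of 0.991 and 2.93, and 77.6% of them had a lower ratio than ACTB. For ACTG1 that share was 66.4%, for MYH9 71.3%, for CFL1 59.2% and for PFN1 49.7%.

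**Figure D2:**
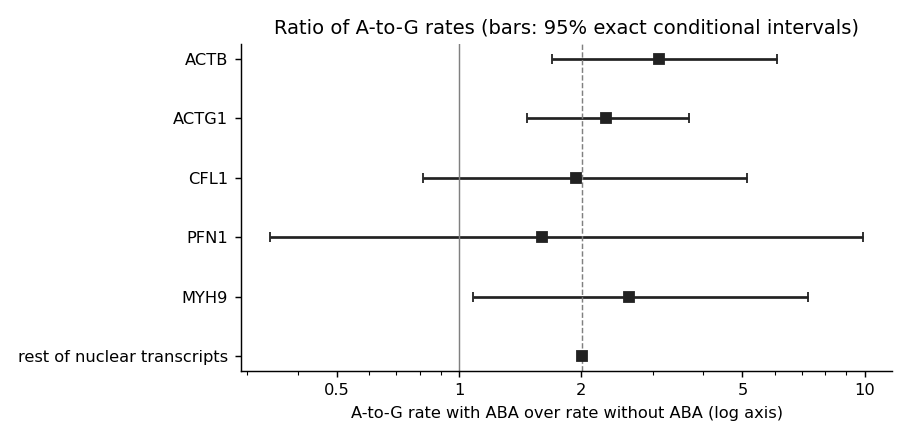
Ratio of the A-to-G rate with ABA to that without ABA (x axis, log scale) for each gene and for all other nuclear transcripts (y axis), with 95% exact conditional intervals as bars, a solid line at 1 and a dashed line at the ratio of the other transcripts. The bars of all 5 genes cross the dashed line at 2.01, and those of CFL1 and PFN1 also cross 1.

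The genes differed among themselves in the level of the rate. Both actins together had 2.29 times (1.63 to 3.28) the rate of the 3 other genes together with ABA, and 1.92 times (1.08 to 3.55) without ABA. The ABA ratio of the actins over that of the 3 other genes was 1.19 (0.625 to 2.27), and in all 10 pairs of single genes the interval of this quantity included 1. With ABA the order of the levels was ACTG1, ACTB, CFL1, PFN1 and MYH9. ACTG1 was 3.20 times (1.96 to 5.40) and ACTB 2.76 times (1.65 to 4.78) as high as MYH9. No neighbours in this order differed beyond counting error. The rate of ACTB over ACTG1 was 0.864 (0.593 to 1.25), of ACTB over CFL1 1.19 (0.689 to 2.13), of CFL1 over PFN1 2.21 (0.850 to 6.77) and of PFN1 over MYH9 1.05 (0.349 to 2.67).

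Depth per position differed between the genes as well. The median depth of a listed position was 64 reads with ABA and 57 without ABA in ACTB, 80 and 67 in ACTG1, and 16 and 14 in MYH9. It was 50 with ABA and 38 without ABA in CFL1, and 47 and 29 in PFN1. Set against all other nuclear transcripts at any depth, the rate with ABA was 2.61 times (1.95 to 3.44) as high in ACTB, 3.02 times (2.38 to 3.79) in ACTG1 and 2.20 times (1.33 to 3.44) in CFL1. It was 0.995 times (0.365 to 2.17) as high in PFN1 and 0.946 times (0.593 to 1.43) in MYH9, and both intervals include 1. Set against positions of at least 50 reads alone, on both sides, it was 0.907 times (0.658 to 1.22) as high in ACTB, 1.08 times (0.839 to 1.36) in ACTG1 and 1.08 times (0.648 to 1.68) in CFL1. At that depth all 3 intervals included 1. The depth classes were added after values had been seen.

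Other deep nuclear positions were themselves high, at 0.225% with ABA and 0.122% without ABA. PFN1 lay below them with ABA. At 50 reads or more it had 4 of 5523 reads (0.0724%) with ABA, 0.321 times (0.0876 to 0.824) the rate of the others. Without ABA it had 1 of 3227 reads, 0.254 times (0.00643 to 1.42), which includes 1. At 20 to under 50 reads PFN1 was not below other such positions. It had 2 of 1888 reads with ABA, 1.16 times (0.140 to 4.18), and 2 of 2120 without ABA, 1.91 times (0.231 to 6.91). MYH9 had no position of at least 50 reads. Its positions of 20 to under 50 reads had 0.0774% with ABA and 0.0395% without ABA, and with ABA that was 0.845 times (0.405 to 1.55) the rate of other such positions. Those under 20 reads had 0.0702% with ABA and 0.0229% without ABA, and with ABA that was 1.22 times (0.632 to 2.14) the rate of the others.

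The other kinds of mismatch gave the background at the same positions. A-to-C stood at 10 reads (0.0398%, 0.0191 to 0.0731) with ABA and 3 reads (0.0139%, 0.00287 to 0.0407) without ABA in ACTB, and at 8 and 7 reads (0.0250% and 0.0255%) in ACTG1. CFL1 had 2 reads with ABA and 0 without ABA, PFN1 2 and 1, and MYH9 2 and 0. A-to-T stood at 6 reads with ABA and 6 without ABA in ACTB, 5 and 3 in ACTG1, 0 and 1 in CFL1, 0 and 0 in PFN1, and 2 and 1 in MYH9. Over the 5 genes the A-to-C ratio was 1.84 (0.868 to 4.16) and the A-to-T ratio 0.997 (0.412 to 2.46), beside 2.43 (1.80 to 3.32) for A-to-G. The A-to-C interval includes both 1 and the A-to-G value. Other mismatches too were more frequent in the 5 genes than elsewhere with ABA. A-to-C stood at 0.0226% (0.0145 to 0.0337), beside 0.0112% in all other nuclear transcripts. A-to-T stood at 0.0123% (0.00653 to 0.0210), beside 0.00586%. Without ABA both kinds stood at 0.0123% (0.00614 to 0.0220) in the genes. That interval includes the A-to-C rate elsewhere, 0.00966%, but not the 0.00577% of A-to-T. Whether the higher A-to-G rate of the genes goes beyond this was not tested.

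Within the genes the G reads were scattered over many positions. In ACTB 40 of 373 listed positions had a G read with ABA, against 13 of 374 without ABA, and in ACTG1 55 of 410 against 27 of 411. CFL1 had 12 of 228 with ABA and 8 of 227 without ABA, PFN1 5 of 160 and 3 of 175, and MYH9 22 of 1809 and 7 of 1729. Most of these positions had 1 G read, namely 32 of the 40 in ACTB and 42 of the 55 in ACTG1 with ABA, and all 22 in MYH9. The highest number at 1 position was 5, in CFL1. A G read in both libraries was found at 2 positions of ACTB, 3 of ACTG1 and 2 of CFL1, and at 0 of PFN1 and MYH9. None of the 3022 positions reached the share of 35% above which a position was treated as a variant.

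**Figure D3:**
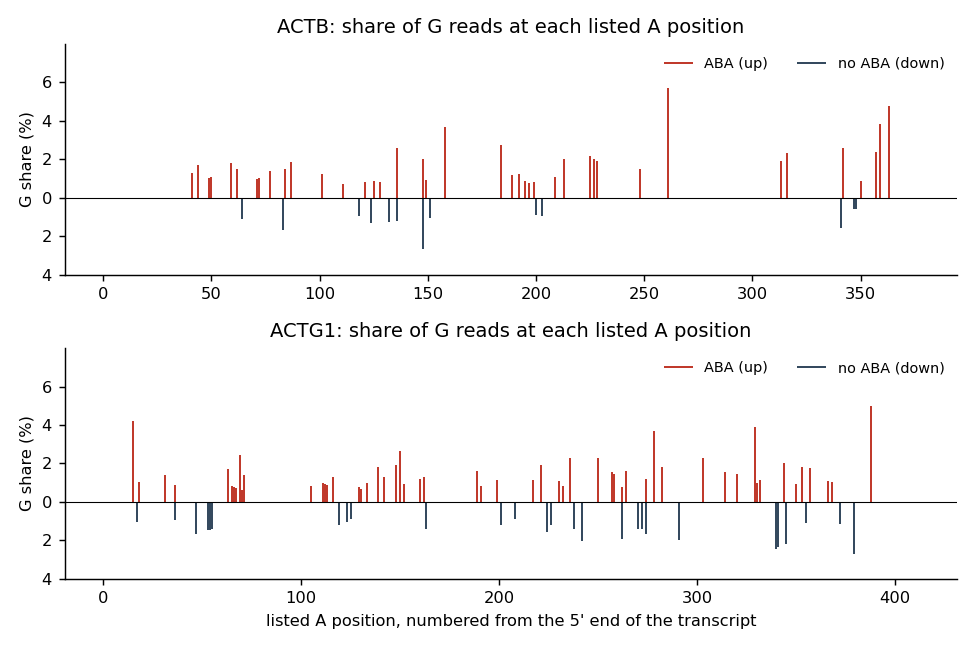
Share of G reads in percent (y axis) at each listed A position of ACTB and ACTG1, numbered from the 5′ end of the transcript (x axis), with ABA drawn upwards in red and without ABA downwards in dark. The G reads are spread along both mRNAs, and the highest shares with ABA are 5.71% in ACTB and 5% in ACTG1.

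No single site passed the test between the libraries. Two-sided Fisher's exact tests were run at 359090 nuclear positions with at least 20 reads in each library, 1254 of them in the 5 genes. A call needed an adjusted p below 0.05 and a shift of 10 percentage points or more, and 0 of 1254 met it, as did 0% of all positions in either direction. Without adjustment 0 of 1254 had an exact p below 0.05, beside 0.0175% of all positions that were higher and 0.000557% that were lower. The measured share was higher with ABA at 109 of the 1254 and lower at 51, beside 3.3% and 1.87% of all positions. These sets were not matched for depth, so the higher counts in both directions are not set apart from depth. By gene the counts higher and lower were 37 and 12 of 329 in ACTB, 52 and 27 of 393 in ACTG1, 11 and 7 of 193 in CFL1, 5 and 3 of 109 in PFN1, and 4 and 2 of 230 in MYH9.

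Among sites with at least 2 G reads in either library, the largest positive difference in share of each gene rested on 2 to 5 G reads with ABA. CFL1 position 65623580 on chromosome 11 had 5 of 68 reads (7.35%, 2.43 to 16.3) with ABA and 0 of 65 without ABA, where a count of 0 allows up to 4.62% (exact p = 0.058, adjusted p = 1). ACTB position 5567311 on chromosome 7 had 2 of 35 reads (5.71%, 0.700 to 19.2) with ABA and 0 of 21 without ABA. No A is listed directly before this site in its stretch above. CFL1 position 65623136 had 4 of 79 reads (5.06%, 1.40 to 12.5) with ABA and 1 of 45 (2.22%) without ABA. In the stretches printed above both CFL1 sites have the pattern anaAna around them, and so do ACTB site 5568001 and ACTG1 site 79478303. Of these, ACTB site 5568001 had a lower share with ABA. How often the pattern occurs among all listed positions was not counted.

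ACTG1 had its largest difference at position 79477064 on chromosome 17, with 2 of 40 reads (5%) with ABA and 0 of 38 without ABA. Position 79479328, near the 5′ end of the listed ACTG1 positions, had 3 of 71 reads (4.23%) with ABA and 0 of 71 without ABA. Position 79477352 had 4 of 103 (3.88%, 1.07 to 9.65) with ABA and 0 of 89 without ABA (exact p = 0.125). All 3 had 0 G reads without ABA, and each interval with ABA overlaps what a count of 0 allows.

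In ACTB, position 5567959 had 4 of 109 reads (3.67%, 1.01 to 9.13) with ABA and 0 of 90 without ABA (exact p = 0.128), and position 5567738 had 2 of 73 (2.74%) and 0 of 63. PFN1 had 1 site with at least 2 G reads, position 4849934 on chromosome 17, with 2 of 47 reads (4.26%) with ABA and 0 of 31 without ABA. MYH9 had no position with 2 G reads in either library. Among sites with 2 G reads, lower shares with ABA were found in the actins. ACTB position 5568001 had 2 of 100 reads (2%) with ABA and 2 of 75 (2.67%) without ABA, and ACTG1 position 79477644 had 1 of 128 (0.781%) and 2 of 105 (1.90%). CFL1, PFN1 and MYH9 had no site with 2 G reads and a lower share with ABA. With 1 G read sufficing, a limit dropped after values had been seen, single reads gave changes of like size both ways. PFN1 position 4849002 had 0 of 34 reads with ABA and 1 of 23 (4.35%) without ABA, and MYH9 position 36682807 had 0 of 25 with ABA and 1 of 25 (4%) without ABA. MYH9 position 36688250 had 1 of 20 (5%) with ABA and 0 of 22 without ABA. ACTG1 position 79477095 had 0 of 51 with ABA and 1 of 37 (2.70%) without ABA. At the named sites with 0 G reads without ABA, that count allows a share of 3.33% to 14.3%.

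The base before the A moved with the rate in these genes. Where the 5′ neighbour was a listed A, the 5 genes had 68 of 23977 reads (0.284%, 0.220 to 0.359) with ABA and 22 of 19963 (0.110%) without ABA. Where it was not listed they had 105 of 82168 (0.128%, 0.105 to 0.155) with ABA and 38 of 69464 (0.0547%) without ABA. The rate after an A was thus 2.22 times (1.61 to 3.04) as high with ABA and 2.01 times (1.13 to 3.49) without ABA. In all other nuclear transcripts it was 1.18 times (1.16 to 1.21) with ABA and 1.01 times (0.983 to 1.04) without ABA. The contrast of the 5 genes over that of the others was 1.87 (1.38 to 2.55) with ABA and 1.99 (1.18 to 3.36) without ABA. The contrast was thus found in both libraries. The ratio of ABA to no ABA was 2.57 (1.57 to 4.37) after an A and 2.34 (1.60 to 3.48) otherwise.

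With ABA the contrast was also found among deep positions. At positions of at least 50 reads, a limit added after the first values were seen, the rate after an A was 0.424% (0.322 to 0.550) with ABA, against 0.160% (0.127 to 0.198) where no A was listed before. That is 2.66 times (1.86 to 3.78), beside 1.12 times (1.06 to 1.18) in other transcripts. Without ABA it was 1.98 times (0.989 to 3.79), an interval that includes 1, beside 0.926 times (0.861 to 0.996). By gene, over all positions with ABA, the contrast was 2.52 times (1.36 to 4.56) in ACTB and 10.3 times (3.29 to 42.7) in CFL1. It was 1.63 times (0.943 to 2.72) in ACTG1, 3.02 times (0.405 to 22.6) in PFN1 and 1.74 times (0.632 to 4.44) in MYH9, intervals that include 1. Without ABA it was 1.67 times (0.260 to 8.60) in CFL1 and 2.51 times (1.06 to 5.685) in ACTG1. It was 2.22 times (0.585 to 7.39) in ACTB, 1.55 times (0.0263 to 29.9) in PFN1 and 1.24 times (0.118 to 7.59) in MYH9. Of these 5 intervals without ABA, that of ACTG1 alone excludes 1. Of the 15 CFL1 G reads after an A with ABA, 9 came from the 2 named CFL1 sites, and without these sites 6 were left and the contrast was 4.34 times (1.03 to 20.9). Over the 5 genes it was then 1.94 times (1.38 to 2.69) with ABA and 1.93 times (1.08 to 3.38) without ABA. Without CFL1 the contrast at depth was 2.14 times (1.43 to 3.16) with ABA, 1.91 (1.31 to 2.80) over that of other transcripts. Reads that share several A positions were counted as independent here, and the other 3 bases before an A cannot be told apart in these files.

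**Figure D4:**
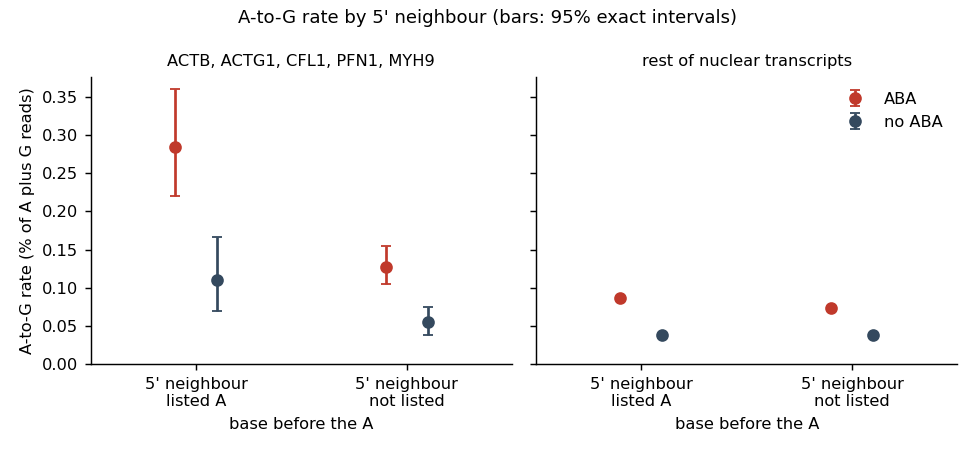
A-to-G rate in percent of A plus G reads (y axis) at positions with and without a listed A as 5′ neighbour (x axis), for the 5 genes (left panel) and all other nuclear transcripts (right panel), with ABA in red and without ABA in dark. Bars are 95% exact intervals, smaller than the points on the right. The 5 genes stand at 0.284% and 0.128% with ABA, the other transcripts at 0.0869% and 0.0734%.

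The base after the A moved with the rate the other way. With a listed A as 3′ neighbour the 5 genes had 0.107% (0.0698 to 0.156) with ABA, against 0.180% (0.152 to 0.211) without such a neighbour, 0.594 times (0.376 to 0.906) as high. Other transcripts had 0.505 times (0.491 to 0.519). The genes' contrast over that of the others was 1.18 (0.775 to 1.79), which includes 1. Without ABA the contrast of the 5 genes was 0.770 times, with an interval that includes 1, beside 0.798 times (0.773 to 0.823).

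The 2 actins share 196 listed A positions, 52.1% of those of ACTB and 47.7% of those of ACTG1, and these were set side by side. The listed positions of ACTB fell into blocks, and 4 of these matched a block of ACTG1 when shifted to the best overlap of A positions, with 92% to 100% of the ACTB positions and 70.8% to 97.9% of the ACTG1 positions shared. Within these blocks there were 12 A positions of ACTB alone and 14 of ACTG1 alone. Reads of such near-identical stretches can be placed in either gene, and the sources used here do not state how such reads were treated, so the values of each actin alone are uncertain. This alignment was made after values had been seen.

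At the 196 common positions the rates of both actins were close. ACTB had 35 of 15725 reads (0.223%, 0.155 to 0.309) with ABA and 10 of 13298 (0.0752%) without ABA, a ratio of 2.96 (1.43 to 6.70). ACTG1 had 39 of 17407 (0.224%, 0.159 to 0.306) with ABA and 11 of 14761 (0.0745%) without ABA, a ratio of 3.01 (1.51 to 6.51). At the positions of 1 actin alone ACTB had 0 of 860 reads with ABA, which allows up to 0.349%, and 1 of 681 without ABA. ACTG1 had 1 of 965 and 1 of 834. At these few positions the rates with and without ABA could not be told apart. Outside the aligned blocks ACTB had 0.186% with ABA and 0.0397% without ABA, a ratio of 4.69 (1.34 to 25.1), and ACTG1 had 0.257% and 0.135%, a ratio of 1.90 (1.03 to 3.68).

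Some positions carried G reads in both actins with ABA. Of the 196, 27 had a G read in ACTB and 28 in ACTG1, and 6 in both. The 6 are 22.2% of the 27 in ACTB, beside 28 of all 196 with a G read in ACTG1. They are 21.4% of the 28 in ACTG1, beside 27 of all 196 in ACTB. Whether 6 is more than unlinked positions would share was not tested. Without ABA 9 had one in ACTB, 11 in ACTG1 and 0 in both. With at least 2 G reads there were 5 in ACTB, 7 in ACTG1 and 2 in both with ABA. These are the pairs printed above. At the first, ACTB position 5568001 had 2 of 100 reads and ACTG1 position 79478303 had 3 of 114 (2.63%) with ABA, against 2 of 75 and 0 of 93 without ABA. At the second, ACTB position 5568070 had 3 of 115 (2.61%) and ACTG1 position 79478372 had 2 of 111 (1.80%) with ABA, against 1 of 82 and 0 of 93 without ABA. Across the 196 positions, which share libraries, depth and possibly reads, the shares of the 2 actins had a Pearson r of 0.185 and a Spearman rho of 0.107 with ABA, and of -0.0487 and -0.0534 without ABA. The pairs were picked after their values were seen.

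Each gene was also cut along its length into 10 parts with about equal numbers of listed A positions. Of these 50 parts 32 had a higher rate with ABA, 9 a lower one and 9 no G read in either library. Other transcripts were not cut in this way. By any amount 27.9% of all loci and 74.2% of the deep ones were higher, and 13.5% and 25.3% lower. These loci were not matched to the parts for depth. ACTG1 was higher in 9 of 10 parts, with rates from 0.116% (0.0378 to 0.271) in the part numbered 3 from the 5′ end to 0.335% (0.167 to 0.599) in part 7 with ABA. These intervals overlap, so the extremes of ACTG1 were not separated. ACTB was higher in 7 of 10 and had 0 G reads in its 5′ part, of 1234 reads with ABA, which allows up to 0.243%, and 1275 without ABA. It also had 0 in part 8, of 1389 reads with ABA and 1308 without ABA. CFL1 had 0.469% in part 2 and 0.418% in part 5 with ABA, each from 6 reads, with intervals of 0.172 to 1.02 and 0.154 to 0.908. It had 1 G read in its last 4 parts together with ABA.

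Blocks of neighbouring positions within the genes gave no call either. The 5 genes held 46 blocks of positions at most 100 nt apart with at least 200 reads in each library, 5 in ACTB, 2 in ACTG1, 3 each in CFL1 and PFN1, and 33 in MYH9. None passed the exact test after adjustment over all 45236 blocks, of which 0.0133% were called higher and 0% lower. Of the 46, 22 had a higher and 8 a lower rate with ABA, beside 27.9% and 13.5% of all blocks. These blocks were not matched for depth. Among loci of at least 5000 reads in each library 74.2% were higher and 25.3% lower, and 14.8% were higher at an unadjusted exact p under 0.05. Of the 46 blocks 3 were higher at that level, beside 0.639% of all. The first was chr17:79477001-79478652 in ACTG1, with 58 of 25717 reads (0.226%) with ABA and 22 of 21747 (0.101%) without ABA, and the others were 2 blocks of ACTB. At chr7:5566791-5567522, the 3′ end of ACTB, the rate was 0.186% (0.106 to 0.302), 16 of 8596 reads, with ABA and 0.0399%, 3 of 7517, without ABA. At chr7:5568793-5569025, named after its value was seen, it was 0.224%, 10 of 4474 reads, with ABA and 0.0266%, 1 of 3760, without ABA. The other deep block of ACTB, chr7:5567926-5568350, had 17 of 7466 reads (0.228%) with ABA and 8 of 6050 (0.132%) without ABA. The other block of ACTG1, chr17:79478930-79479381, had 17 of 6300 (0.270%) with ABA and 6 of 5719 (0.105%) without ABA.

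The deepest blocks of the other genes rested on few G reads. In CFL1, chr11:65623413-65623691 had 0.230% with ABA and 0.108% without ABA, and the 3′ block that ends at position 65622917 had 0.0550% with ABA and 0.0235% without ABA. In PFN1, chr17:4849923-4850113 had 5 of 2955 reads (0.169%, 0.0550 to 0.394) with ABA and 0 of 2044 (0 to 0.180) without ABA. These intervals overlap (exact p = 0.083). The 3′ block chr17:4848951-4849288 had 1 of 3842 (0.0260%) with ABA and 3 of 3223 (0.0931%) without ABA. In MYH9 the deepest block, chr22:36677358-36678823 at its 3′ end, had 2 of 4565 reads with ABA and 0 of 3483 without ABA, and chr22:36744950-36745291 had 2 of 1478 with ABA and 0 of 1262 without ABA. Of the 33 MYH9 blocks 12 were higher and 7 lower with ABA, and the others had no G read in either library.

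Reads of all 5 mRNAs were also deeper with ABA. Depth was taken at the positions that both libraries list and scaled to 1000000 nuclear base reads there. ACTB had 629 scaled base reads with ABA and 523 without ABA, a ratio of 1.20 (1.18 to 1.22). ACTG1 had 800.0 with ABA and 668 without ABA, a ratio of 1.20 (1.18 to 1.22), and MYH9 had 728 and 606, also 1.20 (1.18 to 1.22). CFL1 had 278 with ABA and 222 without ABA, a ratio of 1.25 (1.22 to 1.29), and PFN1 had 194 and 148, a ratio of 1.31 (1.27 to 1.36). In bulk RNA more transcript per cell and more cells with the transcript cannot be told apart.

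Of 371 shared ACTB positions 296 were deeper with ABA and 70 were deeper without ABA, and of 410 in ACTG1 these were 339 and 63. CFL1 had 166 and 43 of 226, PFN1 134 and 19 of 158, and MYH9 1171 and 403 of 1709. These counts compare unscaled depth, and neighbouring positions share reads, so the positions are not independent. The share of all shared nuclear positions that were deeper with ABA was not counted. Of 487 blocks outside the genes with at least 5000 reads in each library, with ratios from 0.663 to 1.84, between 92.2% and 98.6% lay below the genes' ratios. Of all 43834 blocks outside the genes with at least 200 reads in each library, between 82.5% (ACTG1) and 92.1% (PFN1) did. The part of depth in the higher A-to-G rate with ABA was not tested beyond the depth classes given above.

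**Figure D5:**
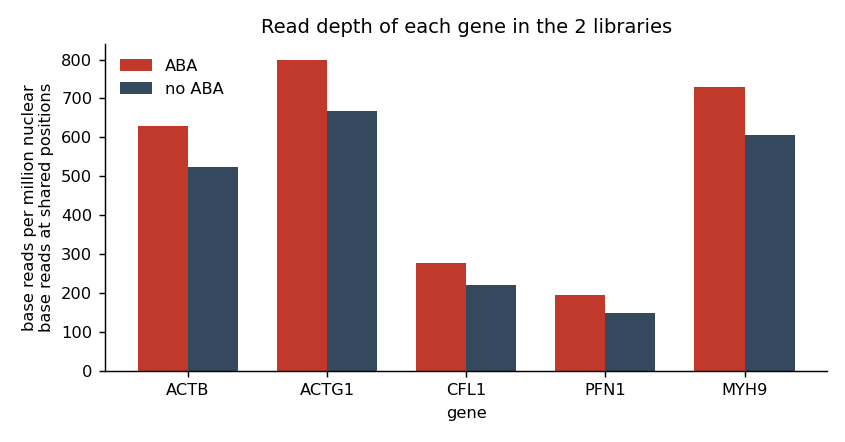
Base reads of each gene, scaled to 1000000 nuclear base reads over positions that both libraries list (y axis), by gene (x axis), with ABA (red, left) and without ABA (dark, right). All 5 genes are higher with ABA, by ratios of 1.20 to 1.31, from 1 library per condition.

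The plus strand of the same intervals held few listed reads, all of them A. ACTB had 805 plus-strand base reads with ABA and 798 without ABA, 3.09% and 3.57% of the base reads of the interval, and ACTG1 had 1200 and 1223, 3.61% and 4.26%. MYH9 had none listed. Over the 5 intervals there were 0 G reads and 0 C or T reads among 2138 with ABA and 2176 without ABA, which allows a share of up to 0.140% and 0.138%. The minus-strand rate of the 5 genes was 0.163% (0.140 to 0.189) with ABA and 0.0671% without ABA. With ABA the plus-strand bound only just reaches the lower limit of that rate, and without ABA it lies above the rate. The strands were not matched for depth. With ABA the 2138 plus-strand base reads lay on 239 positions, and minus-strand positions under 20 reads had 0.0662%. Whether the strands differ was not tested.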

How the data were processed

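RNA of HEK-293T cells was sequenced from 1 library with ABA and 1 without. Libraries were made from enriched mRNA, per the labels' protocols. The submitters' processing notes name cutadapt, HISAT2 and the build hg19, with no version or role for the tools. The authors deposited counts of A, C, G and T reads at each listed position, not normalised, with a single base read cutoff of 5 per the file headers, and the lowest depth found was 6. The counting of bases and the handling of duplicate and multiply aligned reads are not given in the sources used here. The ABA library had 44914317 nuclear base reads and the other 50748953, with a median depth of 10 in both.

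Minus-strand T-to-C counts were read as A-to-G. Positions where G reached 35% with or without ABA were left out of rates, and 0 of these lay in the 5 genes. Shares have Clopper-Pearson intervals, ratios exact conditional binomial ones, and ratios of ratios normal ones on the log scale. A count of 0 was bounded by 3 counts. All p-values are two-sided Fisher's exact tests with Benjamini-Hochberg adjustment over the whole table. The code was run on simulated data with random seed 1. How often it would find differences as small as those reported here is not given. Blocks join positions at most 100 nt apart. Named per gene are the 3 sites with the largest rise and the 1 with the largest fall in share, given 20 reads with and without ABA and 2 G reads in either, and the 2 deepest blocks. The actin blocks, split at gaps over 60 nt, were aligned where at least 60% of A positions and 10 in number were shared, a step added with values known. The members and lists were chosen with earlier results of these data known. Other actin cytoskeleton genes and cell type markers were not measured, since an hg19 annotation was not used here, so exons are not named. Computation used Python 3.11.15 with scipy 1.17.1, pandas 2.3.3 and numpy 2.4.6.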

Additional observations from a re-analysis of the deposited data

How the results depend on the processing

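The ratios of the 5 genes were recomputed with variant-like positions kept, with positions shared by both libraries, with depth minimums of 20 and 50 reads, without the position of most G reads, with all 4 bases in the denominator, and with other block gaps and read minimums. All ratios stayed above 1 there, from 2.49 to 3.11 in ACTB, 2.18 to 2.48 in ACTG1, 1.49 to 1.95 in CFL1, 1.07 to 2.34 in PFN1 and 1.96 to 2.69 in MYH9, and 1 call changed. At positions of at least 50 reads ACTG1 passed, with a ratio of 2.48 and an adjusted exact p of 0.0154, and fewer loci were tested. Over the other settings its adjusted p ran from 0.083 to 1, and that of ACTB from 0.0817 to 1. MYH9 has no position of that depth and gave no value. At A positions of 1 actin alone, a setting added with the data seen, the ratio was 0 in ACTB and 0.864 in ACTG1, each resting on 1 or 2 G reads. Without the position of most G reads 14 blocks were higher with ABA, and of blocks with at least 500 reads 5 were lower, in place of 22 and 8. With variant-like positions kept the ACTB ratio over that of the other transcripts was 1.83 in place of 1.55, and at 50 reads PFN1 had 1.27 in place of 0.799. No site or block of the 5 genes passed under any setting run. No paired analysis was possible because each condition has 1 library. Depth limits single sites: the 0 of 21 reads without ABA at ACTB position 5567311 allow a share of up to 14.3%.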
